A study of Mus musculus with 6 samples.

Results

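Adventitial progenitor and fibroblast markers were examined in cultured aortic smooth muscle cells from mice with floxed Smyd2, with or without a smooth muscle Cre. The 10 genes were chosen by symbol (Pi16, Cd34, Ly6a, Ly6c1, Dpt, Serpinf1, Clec3b, Scara5, Dpp4 and Gli1), and each had 1 row among the 18112 genes measured. RNA from primary vascular smooth muscle cells (VSMCs) of the mouse aorta, strain C57BL/6, was sequenced in 6 libraries, 3 per genotype. The control group, labelled Flox, came from Smyd2 fl/fl littermates, in which exon 2 of Smyd2 is flanked by loxP sites on both alleles. The other group, labelled SMYD2 KO, came from Smyd2 fl/fl mice that also carried Tagln-Cre (SM22α-Cre) and is named Smyd2 SMC-/- in the study. They are called control and knockout here. Both groups carry the floxed alleles, the controls lack Cre, and Tagln is also expressed in some cells other than smooth muscle. The study's methods give mice of 8 to 10 weeks, an aorta stripped of endothelium and adventitia before the media was digested, and cells at passage 4 starved overnight, whereas the labels give passage 6 and medium with 10% serum. The labels do not say whether the replicates came from separate animals, so the p-values measure the spread between these libraries, which may be technical.

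The adventitia is the outer coat of an artery, made of collagen-rich matrix with fibroblasts, nerves, small vessels and resident progenitor cells. Its fibroblasts are recognised by surface proteins such as CD34, SCA-1 (encoded by Ly6a) and PDGFRA and by secreted matrix proteins such as dermatopontin, and cells that express Pi16 and Dpp4 are regarded as an early, multipotent state of fibroblasts in many tissues. Progenitors of the adventitia have been traced by Gli1, a transcription factor of the hedgehog pathway, and smooth muscle cells of the media can themselves take on SCA-1 when they leave the contractile state.

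Levels are in FPKM, fragments scaled for transcript length and library size. The low values of the table gave an estimated 18450000, 19950000 and 19700000 fragments for control replicates 1, 2 and 3, and 17250000, 19400000 and 19150000 for knockout replicates 1, 2 and 3, at which a single fragment of a 2000-base transcript is worth 0.0260 to 0.0301 FPKM. The estimates are rough, as between 68.2% and 70.7% of low values fell no further than 0.15 from a whole number of fragments. Smyd2 itself was at 7.87, 3.10 and 3.0 FPKM in the 3 control libraries and at 1.67, 0.40 and 0.80 FPKM in the 3 knockout libraries. Each knockout library was lower than each control library, in the direction of the labels, although the gene's FPKM also counts exons outside the deleted one. Its log2 fold change on the log2(FPKM + 1) scale was −1.48 (SE 0.389, limma adjusted p = 0.105), and blocking on the replicate number gave an adjusted p of 0.0189.

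The replicate 1 libraries stood apart from the others in both genotypes. The first principal component held 50.2% of the variance and separated replicate 1 from replicates 2 and 3 within each genotype, and the second held 33.1% and separated the genotypes. Across the tested genes Spearman's rho was 0.992 between control replicates 2 and 3 and 0.989 between knockout replicates 2 and 3, while replicate 1 reached 0.930 and 0.934 with them in control and 0.920 and 0.925 in knockout. Genes are not independent replicates, and these values describe the libraries. Values are therefore given for replicate 1 beside replicates 2 and 3. Fits blocked on the replicate number pair the libraries by number, although their values set replicate 1 apart and did not pair replicates 2 and 3. The blocked p-values here and below carry that limit.

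Of 10 genes of contractile smooth muscle, Myh11, Myocd, Des and Synpo2 averaged under 0.5 FPKM and the other 6 were expressed. Of the 10, Acta2, the smooth muscle actin, was the most abundant, and it fell from 761, 682 and 683 FPKM in control replicates 1, 2 and 3 to 201, 268 and 262 FPKM in knockout replicates 1, 2 and 3 (log2 fold change −1.55, SE 0.153, limma adjusted p = 0.00803). Its adjusted p was 0.0541 without control replicate 2, 0.0615 without control replicate 3 and 0.0533 without knockout replicate 3, and under 0.05 without any 1 of the other libraries. With chromosome medians removed, an alternative chosen after seeing the data, its log2 fold change was smaller, at −1.15 (limma adjusted p = 0.0193). Myh11, the smooth muscle myosin heavy chain, did not exceed 0.22 FPKM in any library, Myocd did not exceed 0.48 FPKM and Des did not exceed 0.22 FPKM. Tagln was at 80.5, 79.1 and 70.3 FPKM in control replicates 1, 2 and 3 and 12.5, 87.3 and 57.1 FPKM in knockout replicates 1, 2 and 3, Smtn was between 45.9 and 63.1 FPKM in the 6 libraries, and Lmod1 was between 1.22 and 6.02 FPKM. Cnn1 was at 21.0, 4.86 and 5.11 FPKM in control and 2.70, 5.07 and 4.32 FPKM in knockout replicates 1, 2 and 3. Actg2 was at 2.38, 1.74 and 1.77 FPKM in control and 0.18, 0.73 and 0.66 FPKM in knockout (limma adjusted p = 0.0722), and its groups did not overlap. Genes used as markers of mesothelium, the epithelium that lines body cavities, were present, among them Upk3b at 9.02, 38.5 and 38.2 FPKM in control replicates 1, 2 and 3 and 14.5, 121 and 67.0 FPKM in knockout replicates 1, 2 and 3. Msln was at 0.52, 26.0 and 23.8 FPKM in control and 0.74, 10.1 and 6.92 FPKM in knockout, Lrrn4 at 3.96, 42.6 and 47.9 FPKM and 2.44, 25.1 and 15.1 FPKM, and Wt1 at 0.68, 2.80 and 2.73 FPKM and 1.98, 5.97 and 5.23 FPKM. The summed level of the 5 mesothelial genes was 62.0, 167 and 167 FPKM in control and 28.3, 183 and 103 FPKM in knockout. Ptprc, the pan-leukocyte gene, and the endothelial genes Cdh5 and Tie1 did not exceed 0.02 FPKM in any library, while other genes of those lists were present. Cd14 was between 10.6 and 37.7 FPKM and Cd68 between 2.93 and 4.87 FPKM over the 6 libraries. Kdr was at 0.47, 0.58 and 0.84 FPKM in control and 0.96, 5.15 and 2.96 FPKM in knockout replicates 1, 2 and 3, and Pecam1, under the filter, at 0.56, 0.88 and 0.92 FPKM and 0.12, 0.18 and 0 FPKM. The markers of the labelled cell type were thus only partly present in the RNA of these libraries. The study's methods report staining of each batch for smooth muscle actin with a purity above 95%. The study also reports Acta2, Tagln, Myh11 and myocardin by RT-qPCR in VSMCs of both genotypes. It shows the proteins SM-MHC, SM22α and smooth muscle actin by Western blot, and lower Acta2 and Cnn1 at a later passage. The adventitial markers are given here as levels in the culture and not as counts of adventitial cells.

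Of the 8 markers that could be tested, 6 had a negative estimate in knockout cells and 2 passed the test. Dpt and Serpinf1 were lower at an adjusted p under 0.05 (limma on log2(FPKM + 1) for 12565 genes averaging 0.5 FPKM or more), where 1.21% of all tested genes were called lower and 1.23% higher. None of the 8 was called higher by limma, and 4 were lower and 0 higher with an unadjusted p below 0.05, beside 11.2% lower and 9.16% higher of all tested genes. Without knockout replicate 1, 4 of 8 were called lower, Cd34 and Ly6c1 being added, beside 2.49% of all tested genes. The same 2 genes passed the cutoffs in the study's methods, a fold change over 2 and an adjusted p under 0.01. There 0.207% of the tested genes were called lower. Neither passed the adjusted p of 0.001 in the caption of its heat map, where 0.0159% of the tested genes were called lower. Both sets of cutoffs were applied here to limma. The study applied its cutoffs to another differential analysis, which called many more genes, so the 2 sets of calls are not alike. Blocked on the replicate number, 4 of 8 were called lower, namely Cd34, Ly6a, Dpt and Serpinf1, against 5.72% of all tested genes. In replicates 2 and 3 alone, 6 of 8 were called lower, against 17.2% of all tested genes, and the other 2 were Clec3b and Scara5. The median log2 fold change of the 8 tested markers was −1.51, beside −0.02 over all tested genes. The markers were chosen with earlier results of these data known, so these shares and medians describe them and are no test of the set. Of the 8 tested, the 4 whose knockout libraries each lay below each control library were Cd34, Ly6c1, Dpt and Serpinf1, and 15.0% of all tested genes had such a pattern. Dpp4 and Gli1 lay under the filter on low FPKM and were not tested. In bulk RNA, fewer cells of a type and less RNA per cell cannot be told apart.

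**Figure D1:**
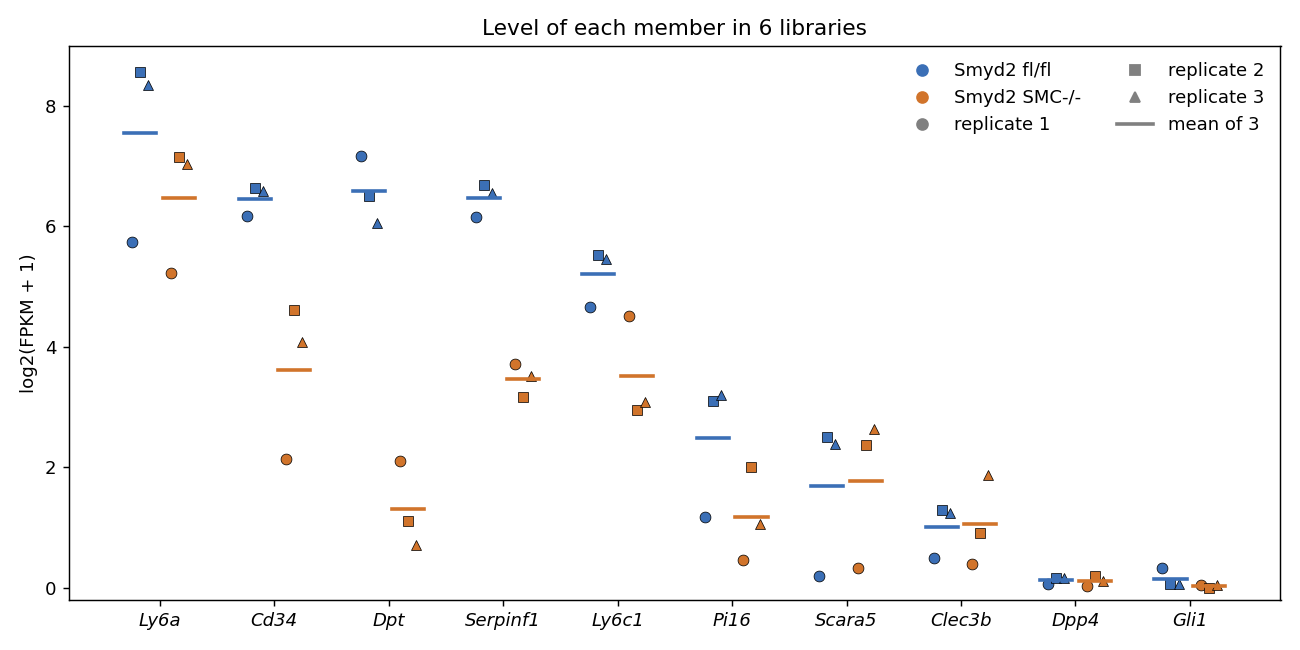
Level of the 10 markers in each of the 6 libraries, as log2(FPKM + 1), with control (Smyd2 fl/fl) and knockout (Smyd2 SMC-/-) by colour, replicate number by symbol and a bar at the mean of 3 libraries. Dpt was between 65.5 and 144 FPKM in control and between 0.63 and 3.31 FPKM in knockout, Serpinf1 was between 70.5 and 103 and between 8.03 and 12.1 FPKM, and the replicate 1 libraries held the lowest Ly6a and Scara5 of each genotype.

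**Figure D2:**
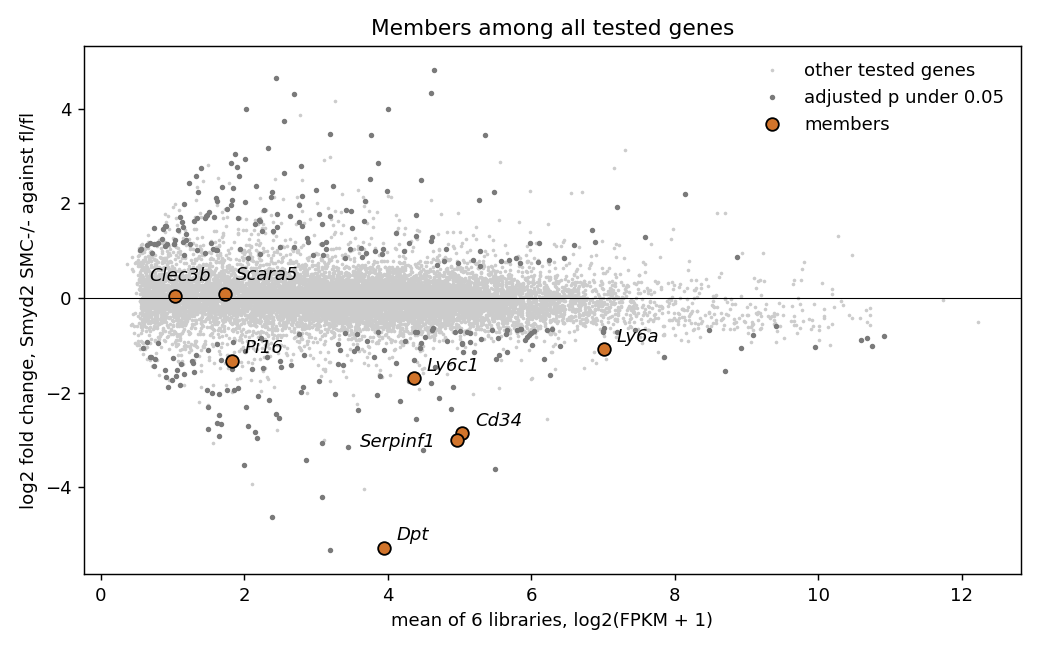
Log2 fold change of knockout against control on the vertical axis and the mean log2(FPKM + 1) of 6 libraries on the horizontal axis for 12565 tested genes, with dark points for an adjusted p under 0.05 and large points for the 8 tested markers. Dpt lies at −5.28 and Serpinf1 at −3.0, while Clec3b at 0.05 and Scara5 at 0.08 lie beside the line of no change.

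Dermatopontin, encoded by Dpt, is a small matrix protein that binds decorin and collagen, and its gene is used as a mark of fibroblasts found across many organs. Pigment epithelium-derived factor, encoded by Serpinf1, is a secreted member of the serpin family that restrains vessel growth. The promoter windows of these 2 genes and of Cd34, the sialomucin of progenitor and endothelial cells that had the next largest difference, are printed here, since these are the members the results turn on. They run from 250 bases before to 50 bases after the start of the gene, on the strand of the gene, from RefSeq on GRCm38.p6. Of the 10 markers, 6 had an entry. The windows lie at chr1:164796413-164796712 on the plus strand for Dpt, chr11:75422574-75422873 on the minus strand for Serpinf1 and chr1:194938571-194938870 on the plus strand for Cd34, and capitals mark a match to a searched motif.
Dpt: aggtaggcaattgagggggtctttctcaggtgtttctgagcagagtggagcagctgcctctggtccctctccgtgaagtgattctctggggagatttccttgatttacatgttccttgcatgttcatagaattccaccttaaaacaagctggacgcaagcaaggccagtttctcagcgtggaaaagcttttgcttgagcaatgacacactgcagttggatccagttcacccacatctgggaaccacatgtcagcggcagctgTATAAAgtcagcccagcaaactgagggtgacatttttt
Serpinf1: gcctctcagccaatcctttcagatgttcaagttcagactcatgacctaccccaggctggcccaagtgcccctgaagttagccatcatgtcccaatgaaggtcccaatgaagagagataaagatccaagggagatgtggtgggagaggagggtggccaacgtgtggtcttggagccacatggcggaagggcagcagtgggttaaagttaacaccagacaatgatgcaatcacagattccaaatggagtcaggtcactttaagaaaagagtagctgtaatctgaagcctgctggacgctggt
Cd34: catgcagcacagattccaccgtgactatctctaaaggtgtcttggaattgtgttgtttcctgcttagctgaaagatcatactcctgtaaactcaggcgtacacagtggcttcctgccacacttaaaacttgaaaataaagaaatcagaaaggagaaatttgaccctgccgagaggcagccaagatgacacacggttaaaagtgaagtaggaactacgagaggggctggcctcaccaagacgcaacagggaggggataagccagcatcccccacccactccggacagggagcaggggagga
The motifs searched on both strands were the TATA element TATAAA, the GC box GGGCGG, the AP-1 site TGANTCA, the GLI consensus GACCACCCA and the CArG box bound by SRF. TATAAA was found in the Dpt window, from base 13 after the start, and none of the 5 motifs was found in the Serpinf1 and Cd34 windows. TATAAA was also in the Dpp4 window and in 1 of 2 windows of Ly6c1, so 3 of the 7 windows of the 6 markers with an entry held it. Of 32851 promoter windows of this length, 13.6% held TATAAA, 35.7% GGGCGG, 7.81% TGANTCA, 0.253% GACCACCCA and 1.63% a CArG box. Such a match describes the letters of the window and draws nothing about a factor.

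Dpt (NCBI Gene 56429, chromosome 1, plus strand) was at 144, 90.3 and 65.5 FPKM in control replicates 1, 2 and 3. In knockout replicates 1, 2 and 3 it was at 3.31, 1.15 and 0.63 FPKM. Every knockout library was far below every control library, and the lowest control level was many times the highest knockout level. The mean was 99.9 ± 40.1 FPKM (SD, n = 3) in control and 1.70 ± 1.42 FPKM (SD, n = 3) in knockout, which left 1.70% of the control level. The log2 fold change was −5.28 (SE 0.427, 95% interval −6.30 to −4.26, limma adjusted p = 0.00417). The difference was −5.07 in the replicate 1 pair, −5.41 in the replicate 2 pair and −5.35 in the replicate 3 pair on the log2(FPKM + 1) scale. Without the pseudocount, the control level was 43.5, 78.5 and 104 times the knockout level in the replicate 1, 2 and 3 pairs. Serpinf1 (NCBI Gene 20317, chromosome 11, minus strand) was at 70.5, 103 and 93.5 FPKM in control replicates 1, 2 and 3 and at 12.1, 8.03 and 10.4 FPKM in knockout replicates 1, 2 and 3. Again no library of one group reached the other. The mean was 88.8 ± 16.5 FPKM (SD, n = 3) against 10.2 ± 2.04 FPKM (SD, n = 3), with a log2 fold change of −3.0 (SE 0.203, 95% interval −3.49 to −2.52, limma adjusted p = 0.00246). Within pairs it was −2.45 in replicate 1, −3.52 in replicate 2 and −3.05 in replicate 3. For each single gene an exact two-sided permutation test of 3 libraries against 3 can reach no p below 0.1, which both genes gave.

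**Figure D3:**
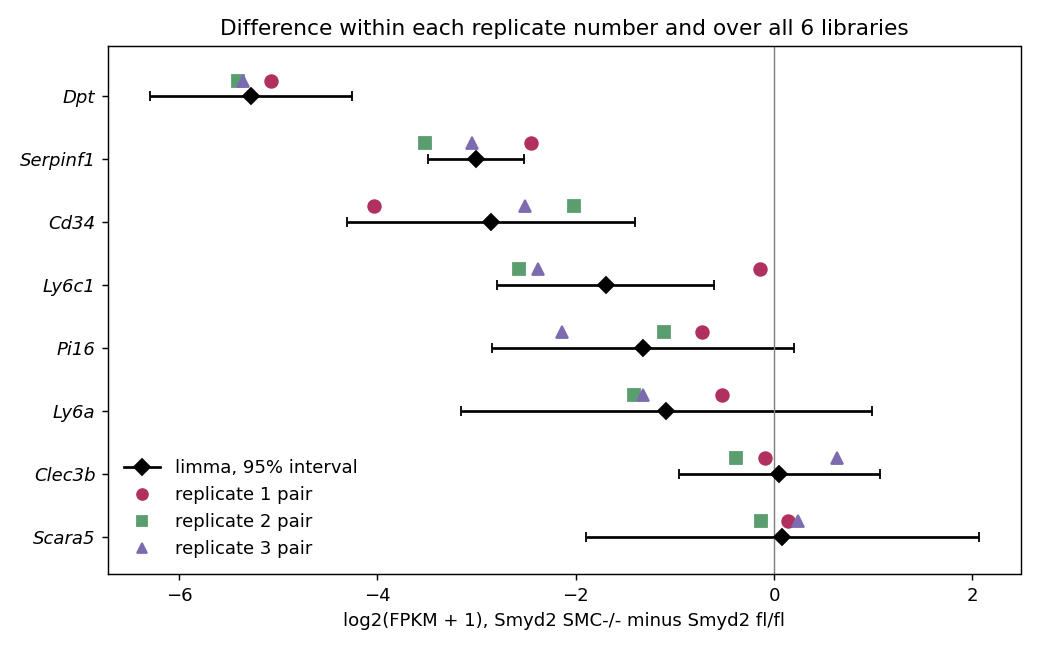
Difference of knockout minus control in log2(FPKM + 1) for the 8 tested markers, with a symbol for each replicate pair and a diamond with its 95% interval for the limma estimate over 6 libraries. The 3 pairs lie within −5.41 to −5.07 for Dpt, while for Ly6c1 they were −0.15 in replicate 1, −2.57 in replicate 2 and −2.38 in replicate 3.

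Cd34 (NCBI Gene 12490) was at 71.1, 98.2 and 95.02 FPKM in control replicates 1, 2 and 3 and at 3.39, 23.6 and 15.9 FPKM in knockout replicates 1, 2 and 3. The groups did not overlap, and the replicate 1 library was the lowest of its genotype in both. The mean was 88.1 ± 14.8 FPKM (SD, n = 3) against 14.3 ± 10.2 FPKM (SD, n = 3). The log2 fold change was −2.85 (SE 0.608, limma adjusted p = 0.0669), past the threshold when blocked on the replicate number (adjusted p = 0.0269). Without knockout replicate 1 the log2 fold change was −2.12 with an adjusted p of 0.0121. The pairs differed by −4.04 in replicate 1, −2.01 in replicate 2 and −2.51 in replicate 3, and the interaction of genotype with replicate 1, the difference in the replicate 1 pair minus the mean of the others, was −1.78 (SE 0.299, limma adjusted p = 0.0161). That interaction passed in 3 of the 8 tested markers (Cd34, Ly6a and Ly6c1), beside 8.62% of all tested genes, and not in Dpt (adjusted p = 0.607), Serpinf1 (0.0661), Pi16 (0.334), Clec3b (0.829) and Scara5 (0.864). It rests on 1 library per genotype for replicate 1, whose spread is taken from replicates 2 and 3, and the division was named with earlier results known. Cd34 starts 5.02 Mb beyond the end of Smyd2 on chromosome 1 in GENCODE M21 on GRCm38. The other 69 tested genes within 10 Mb of Smyd2 had a median log2 fold change of 0.07, and 29 of them had a negative estimate. At an adjusted p under 0.05 from limma 0 were called lower and 2 higher, beside 1.21% and 1.23% of all tested genes. With an unadjusted p below 0.05, 2 were lower and 10 higher, beside 11.2% and 9.16%. Both genotypes carry the floxed alleles, and a part of this position in the level of Cd34 was not tested.

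Ly6a and Ly6c1 belong to the Ly6 family of small proteins held to the membrane by a lipid anchor, and lie on chromosome 15. Ly6a (NCBI Gene 110454), which encodes SCA-1, had the highest mean of the 10 markers in each genotype, at 52.6, 378 and 327 FPKM in control replicates 1, 2 and 3 and at 36.4, 141 and 130 FPKM in knockout replicates 1, 2 and 3. In control replicate 1 alone Dpt, Cd34 and Serpinf1 lay above it. The replicate 1 library of each genotype was well below its partners, and the groups overlapped because control replicate 1 lay below knockout replicates 2 and 3. The log2 fold change was −1.09 (SE 0.866, limma adjusted p = 0.552). It was −0.46 without knockout replicate 1, −0.58 without control replicate 2, −0.68 without control replicate 3 and −1.99 without control replicate 1. In contrast, blocking on the replicate number gave an SE of 0.201 and an adjusted p of 0.0404. The difference was −0.52 in the replicate 1 pair, −1.41 in replicate 2 and −1.32 in replicate 3. The interaction between genotype and replicate 1 was 0.85 (SE 0.204, limma adjusted p = 0.0451). Ly6c1 (NCBI Gene 17067) was at 24.3, 45.2 and 43.0 FPKM in control and at 21.8, 6.76 and 7.46 FPKM in knockout replicates 1, 2 and 3. The groups did not overlap, although the replicate 1 libraries of the 2 genotypes lay close together. Its log2 fold change was −1.70 (SE 0.458, limma adjusted p = 0.111) with all libraries, and its adjusted p with the block was 0.0979. Without knockout replicate 1 it was −2.20 with an adjusted p of 0.0204. In replicates 2 and 3 alone, where 17.2% of all tested genes were called lower, it was −2.48 (SE 0.103, limma adjusted p = 1.06e-05). The interaction was 2.33 (SE 0.178, limma adjusted p = 0.000741).

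Ly6c1 has a near-identical neighbour, Ly6c2, which did not exceed 0.19 FPKM in any library, and fragments shared by the pair could have been assigned to either gene. Of 18 genes in the Ly6 family list, which includes Ly6a and Ly6c1, 13 were in the table and 5 were tested. None passed the test with limma, and 4 had a negative estimate. With an unadjusted p below 0.05, 1 was lower and 0 higher, beside 11.2% and 9.16% of all tested genes. With the block 2 of the 5 were called lower and 0 higher, beside 5.72% and 4.72% of all tested genes, and in replicates 2 and 3 alone 3 lower and 1 higher, beside 17.2% and 11.9%. Ly6e was the most abundant, at 68.0, 493 and 462 FPKM in control and 39.2, 336 and 279 FPKM in knockout replicates 1, 2 and 3. Its replicate 1 libraries were low in both genotypes, as for Ly6a, and its adjusted p of 0.781 became 0.0279 under the block. The summed level of the family, these 2 markers included, was 145, 918 and 836 FPKM in control and 98.1, 487 and 420 FPKM in knockout.

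Pi16 (NCBI Gene 74116), a peptidase inhibitor that marks early fibroblast states, was at 1.26, 7.59 and 8.18 FPKM in control and at 0.37, 2.99 and 1.08 FPKM in knockout replicates 1, 2 and 3. The groups overlapped through control replicate 1, which lay below knockout replicate 2. The log2 fold change was −1.32 (SE 0.636, limma adjusted p = 0.304). In replicates 2 and 3 alone, where 17.2% of all tested genes were called lower, it was −1.62 (SE 0.301, limma adjusted p = 0.0127). Clec3b (NCBI Gene 21922), encoding the plasminogen-binding protein tetranectin, was at 0.40, 1.45 and 1.36 FPKM in control and at 0.31, 0.88 and 2.67 FPKM in knockout. Those levels correspond to an estimated 5 to 47 fragments per library, and the groups overlapped, with the highest and the lowest value both in knockout. The log2 fold change was 0.05 (95% interval −0.96 to 1.06, limma adjusted p = 0.964). Scara5 (NCBI Gene 71145), a ferritin receptor, was at 0.14, 4.65 and 4.25 FPKM in control and at 0.26, 4.14 and 5.21 FPKM in knockout. In both genotypes replicate 1 was far below replicates 2 and 3, while the genotypes overlapped. Its log2 fold change was 0.08 (95% interval −1.90 to 2.07, limma adjusted p = 0.969), and in replicates 2 and 3 alone it was 0.05 (95% interval −0.28 to 0.38). For Clec3b and Scara5 the sign of the estimate changed with the processing.

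Dpp4 (NCBI Gene 13482), a cell-surface peptidase, and Gli1 (NCBI Gene 14632) were near the limit of detection. Dpp4 was at 0.04, 0.12 and 0.12 FPKM in control and at 0.02, 0.14 and 0.08 FPKM in knockout replicates 1, 2 and 3, an estimated 2 to 14 fragments per library. Gli1 was at 0.26, 0.04 and 0.04 FPKM in control and at 0.03, 0 and 0.03 FPKM in knockout. Its control replicate 1 held an estimated 19 fragments and the other libraries at most 3, so no difference could be read at this depth, although each knockout value lay below each control value. The rest of the hedgehog pathway was expressed in part. Of 14 pathway genes 13 were in the table and 9 were tested, and none passed the test with limma. With an unadjusted p below 0.05, 2 were lower and 0 higher, beside 11.2% and 9.16% of all tested genes. The estimates were 3 negative and 6 positive, with a median log2 fold change of 0.11. Smo, the signal transducer, was the most abundant, at 42.2, 63.1 and 63.0 FPKM in control and 58.0, 56.9 and 64.1 FPKM in knockout. The receptor gene Ptch1 was at 5.91, 7.06 and 7.73 FPKM in control and 3.0, 3.14 and 4.77 FPKM in knockout, with a limma adjusted p of 0.0975, and 0.0369 when blocked. With the block 2 of the 9 were called lower and 1 higher, beside 5.72% and 4.72% of all tested genes. Replicates 2 and 3 alone gave 3 lower and 1 higher, beside 17.2% and 11.9%, with a median log2 fold change of −0.06. Ihh and Dhh, genes of the secreted ligands, did not exceed 0.38 FPKM in any library.

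Of 19 genes in a list of adventitial and general fibroblast genes 18 were tested, of which 1 was called lower and 1 higher, beside 1.21% and 1.23% of all tested genes, and 7 were lower and 5 higher with an unadjusted p below 0.05, beside 11.2% and 9.16%, with a median log2 fold change of 0.05 beside −0.02 over all tested genes. With the replicate block 3 were called lower and 3 higher, and in replicates 2 and 3 alone 8 lower and 5 higher, while of all tested genes the block called 5.72% lower and 4.72% higher and replicates 2 and 3 alone 17.2% lower and 11.9% higher. Mfap5, a microfibril-associated protein, fell from 10.3, 36.8 and 33.7 FPKM in control to 1.24, 2.90 and 1.84 FPKM in knockout (log2 fold change −3.07, SE 0.486, limma adjusted p = 0.0347). Its adjusted p was 0.137 without control replicate 2, 0.151 without control replicate 3, 0.110 without knockout replicate 2 and 0.158 without knockout replicate 3. Fbln1, encoding the matrix protein fibulin-1, rose from 0.14, 0.11 and 0.13 FPKM to 1.06, 1.54 and 1.96 FPKM (log2 fold change 1.15, SE 0.194, limma adjusted p = 0.0414). It averaged 0.127 FPKM in control and 1.52 FPKM in knockout, so it passed the filter on low FPKM only through the knockout libraries. Each control library held an estimated 8 or 9 fragments of Fbln1. Its adjusted p was 0.0673, 0.172 and 0.173 without control replicates 1, 2 and 3 in turn, and 0.158 and 0.181 without knockout replicates 2 and 3. Vim, the intermediate filament of mesenchymal cells, was the most abundant gene of the list, at 1745, 1730 and 1813 FPKM in control and 1416, 1391 and 1179 FPKM in knockout. Pdgfra, the receptor that defines many fibroblasts, was at 18.1, 31.9 and 29.8 FPKM in control and 11.8, 4.85 and 7.10 FPKM in knockout (limma adjusted p = 0.0601). Its groups did not overlap, as for Cd34. Col14a1, a collagen of the adventitia, was at 6.49, 24.7 and 26.8 FPKM in control and 64.8, 160 and 197 FPKM in knockout (limma adjusted p = 0.0683, or 0.0032 when blocked). Dcn, encoding decorin, was at 13.9, 311 and 257 FPKM in control and 25.6, 383 and 350 FPKM in knockout, low in replicate 1 of both genotypes.

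Summed levels were not tested and are given as a description. The sum of the 10 markers was 364, 728 and 638 FPKM in control and 78.0, 189 and 174 FPKM in knockout replicates 1, 2 and 3. The sum of the other fibroblast genes was 4321, 4880 and 4703 FPKM in control and 4881, 4544 and 3592 FPKM in knockout, and that of the smooth muscle genes was 925, 824 and 816 FPKM and 264, 430 and 377 FPKM. Of the 10 smooth muscle genes 6 were tested, and limma called 1 lower and 0 higher, beside 1.21% and 1.23% of all tested genes. With an unadjusted p below 0.05, 2 were lower and 0 higher, beside 11.2% and 9.16%. The replicate block called 1 lower and 0 higher, beside 5.72% and 4.72%. Replicates 2 and 3 alone gave 2 lower and 1 higher, beside 17.2% and 11.9%. Among the 5 mesothelial genes Krt19, a keratin, was called lower, from 47.8, 57.6 and 54.3 FPKM to 8.71, 20.5 and 8.53 FPKM (log2 fold change −2.10, SE 0.325, limma adjusted p = 0.0317). The main fit thus called 1 of them lower and 0 higher, beside 1.21% and 1.23% of all tested genes. With an unadjusted p below 0.05, 1 was lower and 0 higher, beside 11.2% and 9.16%. The adjusted p of Krt19 was 0.0607, 0.142 and 0.144 without control replicates 1, 2 and 3 in turn and 0.138 without knockout replicate 3. With the replicate block 1 mesothelial gene was called lower and 2 higher, beside 5.72% and 4.72% of all tested genes, and in replicates 2 and 3 alone 3 lower and 2 higher, beside 17.2% and 11.9%. The part of these other cell type markers in the lower levels of Dpt, Serpinf1 and Cd34 was not tested.

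**Figure D4:**
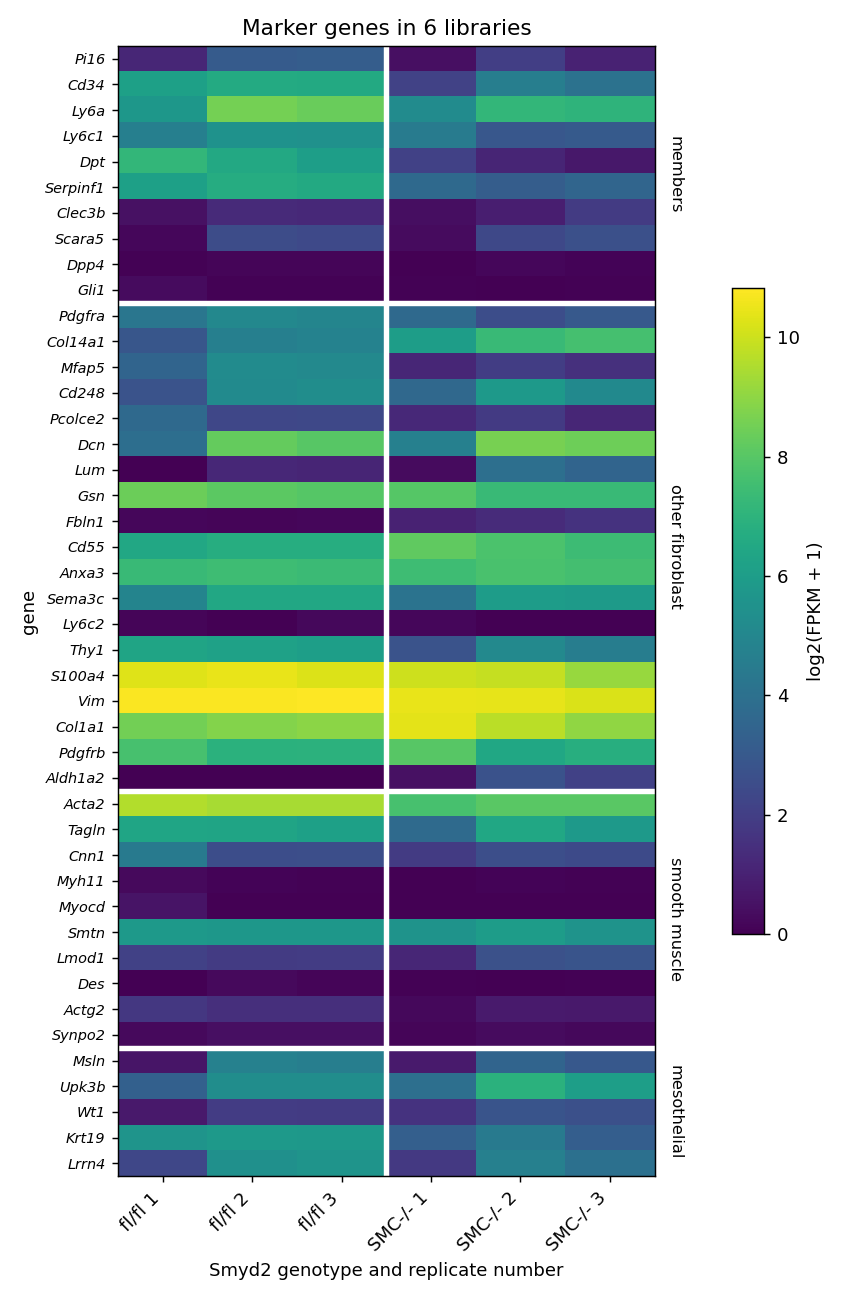
Level of the markers, other fibroblast genes, smooth muscle genes and mesothelial genes as log2(FPKM + 1), with 1 row per gene and 1 column per library. The top block shows Dpt and Serpinf1 high in all 3 control libraries and low in all 3 knockout libraries, Acta2 is the brightest smooth muscle row at 201 to 761 FPKM, and the rows of Myh11, Myocd and Des are at most 0.48 FPKM in any library.

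The order of the markers by level differed between the genotypes. In control the order by mean was Ly6a, Dpt, Serpinf1 and Cd34, followed by Ly6c1, Pi16, Scara5, Clec3b, Gli1 and Dpp4. The first 4 had overlapping libraries, from 253 ± 175 FPKM (SD, n = 3) for Ly6a to 88.1 ± 14.8 FPKM (SD, n = 3) for Cd34, and no library of Ly6c1 reached those of Cd34. In knockout the order was Ly6a, Cd34, Ly6c1 and Serpinf1, then Scara5, Dpt, Pi16, Clec3b, Dpp4 and Gli1. There Ly6a stood above the rest at 103 ± 57.6 FPKM (SD, n = 3), and Cd34, Ly6c1 and Serpinf1 had overlapping libraries. By mean, Dpt thus went from the second place to the sixth, and its libraries overlapped those of Scara5 and Pi16. The second place rests on control replicate 1, where Dpt was the highest marker at 144 FPKM. In control replicates 2 and 3 it lay below Ly6a, Serpinf1 and Cd34. In knockout it lay above Scara5 and Pi16 in replicate 1 and below both in replicates 2 and 3.

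For the 5 markers with a mean of at least 5 FPKM (Cd34, Ly6a, Ly6c1, Dpt and Serpinf1), the gene with the most similar pattern over the 6 libraries was found among 8606 other genes with a symbol and a mean of at least 5 FPKM, by the mean absolute difference of log2(FPKM + 1) after each gene was centred on its own mean. For Dpt the nearest gene was Eya2, with a difference of 0.54, for Serpinf1 it was Arhgap45, with 0.24, and for Cd34 it was Igfbp4, with 0.17. Igfbp4 was at 152, 213 and 179 FPKM in control and 9.35, 76.1 and 35.4 FPKM in knockout replicates 1, 2 and 3, the pattern of Cd34 with its lowest library in knockout replicate 1. For Ly6a it was Apod, with 0.08, and for Ly6c1 it was Pdgfra, with 0.16. Apod was low in the replicate 1 library of both genotypes, at 1.30 and 0.44 FPKM. Pdgfra was the only one of these 5 nearest genes that also belonged to the list of other fibroblast genes.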

How the data were processed

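Libraries of aortic VSMCs, 3 control and 3 knockout, were analysed, with groups and replicate numbers from the sample labels. The authors prepared poly-A libraries, sequenced them as paired ends on the BGISEQ-500, filtered reads with SOAPnuke, aligned with HISAT and Bowtie2 and quantified with RSEM. The table they deposited lists 18112 genes as FPKM to 2 decimals, and 1125 rows carry no symbol. FPKM is relative to the fragments of a library, so a change in a few abundant genes shifts the rest. Tool versions and the genome build are not given in the sources used here.

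Values were log2-transformed after adding a pseudocount of 1, and 12565 genes averaging 0.5 FPKM or more entered a comparison of genotypes by limma 3.58.1 under R 4.3.3, where eBayes had its trend and robust options on. The p-values were adjusted by Benjamini-Hochberg over all tested genes. For low genes this scale gives too small a fold change. The planned test for counts was not used, as the table held FPKM. Libraries that share a number in the labels had correlated deviations from their genotype means, at 0.615, 0.460 and 0.527 for replicates 1, 2 and 3, but control replicate 2 with knockout replicate 3 and control replicate 3 with knockout replicate 2 reached 0.461 and 0.439, so the values set replicate 1 apart and do not pair replicates 2 and 3 by number. The comparison was also blocked on the number the labels share. Single genes were also compared with an exact two-sided permutation test. Depth was estimated from low FPKM values of 4320 genes with 1 listed transcript, and covers counting error only. Positions come from GENCODE M21 on GRCm38, matched by RefSeq transcripts, and promoter windows from RefSeq on GRCm38.p6.

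The markers and the lists of other cell types, the hedgehog pathway and the Ly6 family were chosen with earlier results of these data known. Named are the 10 markers, Smyd2, genes of those lists that passed the test or were among the abundant ones, others as examples, and the nearest gene of each marker with a mean of at least 5 FPKM. Genes further down that comparison are not reported here. Alternatives were a pseudocount of 0.1, no filter, the blocks, leaving out libraries, TPM and quantile scaling, and, chosen after seeing the data, removal of chromosome medians and an interaction of genotype with replicate 1. Python 3.11.15 with pandas 2.3.3, numpy 2.4.6, scipy 1.17.1 and matplotlib 3.10.9 did the rest.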

Additional observations from a re-analysis of the deposited data

How the results depend on the processing

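Dpt and Serpinf1 kept their direction and stayed past the threshold in each of 14 alternatives, with log2 fold changes of −6.02 to −4.98 for Dpt and −3.28 to −2.86 for Serpinf1 and adjusted p (limma) of 1.08e-05 to 0.0407 and 9.95e-06 to 0.0267. Cd34, Ly6a, Ly6c1 and Pi16 kept a negative estimate in each, and came past the threshold in 4, 3, 2 and 2 alternatives, with adjusted p from 0.00023 to 0.21, 0.000336 to 0.823, 1.06e-05 to 0.335 and 0.0127 to 0.574. Of 8 tested markers 2 were called, against 4 with the replicate block, 5 with replicate 1 against replicates 2 and 3 as a block and 6 in replicates 2 and 3 alone. Leaving out 1 library gave 2 to 4, and the 4 came without knockout replicate 1, where Cd34 and Ly6c1 passed. Among all genes 306 were called, against 1312 with the replicate block, 2550 with replicate 1 as a block, 3650 in replicates 2 and 3 alone and 34 to 686 when 1 library was left out, lowest without control replicate 2 and highest without knockout replicate 1. The replicate block changed no other call of a marker than those of Cd34 and Ly6a. At the cutoffs of the study's methods limma called 53 genes, and 306 at an adjusted p under 0.05 whatever the fold. Clec3b turned negative with a pseudocount of 0.1 (−0.0079), without control replicate 1 (−0.21) and knockout replicate 3 (−0.36), and with chromosome medians removed, an alternative chosen after seeing the data (−0.10). Scara5 did so without control replicate 1 (−0.67), knockout replicate 2 (−0.21) and knockout replicate 3 (−0.35), and with chromosome medians removed (−0.0070). Leaving out 1 library gave at most 0.39 for Clec3b and 0.81 for Scara5. The cause was not tested. Rescaling to TPM shifted the overall median by 0.11 on the log2 scale and changed the split from 152 lower and 154 higher to 99 and 247, and the 6 markers with negative estimates stayed negative. Smyd2 and 5 other genes named outside the markers were run under the same alternatives, chosen after seeing the data, and kept their direction in each. Of 14 alternatives, Acta2 lost its call in 3, Mfap5 and Krt19 in 5 each, Fbln1 in 6 and Notch3 in 8, while Smyd2 passed in 3. Where a library was left out, 2 libraries stood against 3. Depth limits Clec3b, Dpp4, Gli1 and the control level of Fbln1, and 3 libraries per group limit all single-gene tests.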

Other observations

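Of 6 pericyte genes 5 were in the table and 4 were tested. Notch3, a receptor of mural cells, rose from 0.65, 1.34 and 1.27 FPKM in control to 3.25, 3.17 and 3.35 FPKM in knockout replicates 1, 2 and 3 (log2 fold change 1.05, SE 0.192, limma adjusted p = 0.0489; 0.0559, 0.155 and 0.172 without control replicates 1, 2 and 3 in turn, and 0.0527, 0.164 and 0.211 without knockout replicates 1, 2 and 3). Rgs5 was at 3.28, 8.05 and 7.27 FPKM in control and 0.71, 5.85 and 0.85 FPKM in knockout. The summed level of the list was 5.96, 10.5 and 9.99 FPKM in control and 7.05, 14.2 and 6.97 FPKM in knockout.

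Of 6 adipocyte genes 5 were in the table and 2 were tested, and none passed the test with limma. With an unadjusted p below 0.05, 1 was lower and 0 higher, beside 11.2% and 9.16% of all tested genes. Fabp4, a fatty acid-binding protein, was at 119 FPKM in knockout replicate 1 and between 3.12 and 6.19 FPKM in the other 5 libraries, while Adipoq and Plin1 did not exceed 0.09 FPKM. Pparg, the gene that was lower, was at 4.50, 8.0 and 6.87 FPKM in control and 3.84, 2.11 and 1.88 FPKM in knockout (limma adjusted p = 0.107). It was called lower in replicates 2 and 3 alone (limma adjusted p = 0.000344), as were 17.2% of all tested genes. Of 5 Schwann cell genes 2 were tested and none passed (0 lower and 1 higher with an unadjusted p below 0.05, beside 11.2% and 9.16% of all tested genes). S100b was at 0.34, 1.38 and 1.02 FPKM in control and 0.98, 12.7 and 7.40 FPKM in knockout, and Sox10 did not exceed 0.02 FPKM. Of 10 leukocyte genes 9 were in the table and 4 were tested, and none passed. At an unadjusted p below 0.05, 0 were lower and 1 higher, beside 11.2% and 9.16% of all tested genes. Cd14 was the most abundant in each library, and the list summed to 42.8, 30.1 and 26.9 FPKM in control and 41.3, 18.4 and 23.0 FPKM in knockout. Of 10 endothelial genes 9 were in the table and 1 was tested, Kdr, which did not pass with limma. It was higher with an unadjusted p below 0.05, as were 9.16% of all tested genes. It was called higher in replicates 2 and 3 alone, as were 11.9% of all tested genes. The list summed to 1.82, 2.65 and 2.60 FPKM in control and 2.59, 5.64 and 3.09 FPKM in knockout.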
